A study of Mus musculus with 31 samples.

Results

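The genes described here are the 39 protein-coding Hox genes of the mouse HoxA, HoxB, HoxC and HoxD clusters, chosen by their symbols (a cluster letter and a number) out of the 38283 genes in each deposited table. HoxA holds 11 of them (chromosome 6, 52155590 to 52260880), HoxB 10 (chromosome 11, 96194316 to 96368256), HoxC 9 (chromosome 15, 102921103 to 103036852) and HoxD 9 (chromosome 2, 74668310 to 74765142, all GRCm38). RNA was measured in pancreatic cells of C57BL/6 mice at postnatal day 2, sorted into YFP-positive mesenchymal and YFP-negative non-mesenchymal cells. The groups with values were controls (H19DMD+/+; Nkx3.2+/Cre) and mutants (H19DMDfl/+; Nkx3.2+/Cre) of the H19DMD model, with 3 and 4 libraries of each fraction. Of the Igf2 model, only non-mesenchymal cells were used, with 4 libraries of controls (Igf2+/+; Nkx3.2Cre/+) and 3 of mutants (Igf2+/fl; Nkx3.2Cre/+). These are 21 of the series' 31 samples, and the mesenchymal cells of the Igf2 model were not analysed here.

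All groups, controls included, carry 1 Nkx3.2-Cre allele, which recombines floxed alleles in the mesenchyme of the pancreas and its neighbours. The non-mesenchymal cells of a mutant are therefore cells that the Cre driver is not meant to recombine. H19DMD is the imprinting control region between H19 and Igf2. The series set out to delete or overexpress Igf2 in the mesenchyme, with littermates as controls. The parental origin of the heterozygous alleles and whether a library pools several animals are not given in the sources used here. P-values then measure the spread between these samples, which may be partly technical.

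Hox genes encode homeodomain transcription factors that tell cells of the embryo their position along the head-to-tail axis. Within a cluster the genes lie in order of their numbers, and low numbers are generally expressed earlier and further forward than high numbers. The proteins bind DNA together with TALE homeodomain cofactors of the Pbx and Meis families. In the pancreas, Hox genes of the foregut level are known from the mesoderm-derived cells around the epithelium, and the paralogues numbered 6 in particular from their role in endocrine differentiation.

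Values are FPKM, which divides the fragments of a gene by its transcript length and by the size of the library, so levels of different genes can be set side by side. A fragment on a transcript of 2000 bases was worth 0.105 to 0.223 FPKM per H19DMD library and 0.0647 to 0.165 per Igf2 library, judged from the smallest steps in genes with 1 annotated transcript. Levels well under 1 FPKM therefore rest on a handful of fragments, and an exact 0 can also be a failed estimate. In the label check, Igf2 was 7040 FPKM ± 800 (SD, n = 4) in mutant and 3849 ± 190 (SD, n = 3) in control mesenchymal cells, and H19 was 700 ± 123 (SD, n = 4) and 2446 ± 8.1 (SD, n = 3). By limma the difference in H19 passed (adjusted p = 0.0458) and that in Igf2 did not (adjusted p = 0.927). In the Igf2 model, Igf2 was 78.9 FPKM ± 62 (SD, n = 3) in mutant and 93.5 ± 34 (SD, n = 4) in control non-mesenchymal cells (limma adjusted p = 0.924), and the mesenchymal cells that carry the deletion were not analysed here, so the values do not check those labels. The sort was clear on its markers: 11 of 11 mesenchymal markers tested were higher in the mesenchymal fraction of controls, and 10 of 10 acinar and 10 of 10 endocrine markers were lower (limma, adjusted p under 0.05). Mesothelial markers (4 of 5; sums of 149 to 331 against 37.7 to 53.5 FPKM) and endothelial markers (3 of 8; 86.9 to 93.1 against 17.9 to 44.2 FPKM) were also higher in the mesenchymal fraction. Splenic mesenchyme markers (1 of 3) summed to 56.4 to 82.3 against 0.827 to 4.69 FPKM in controls, mostly through Wt1 (57.1 FPKM), which is also on the mesothelial list, while Tlx1 was at 2.36 and Nkx2-5 at 0 FPKM. In mutants the splenic sums were 47.5 to 77.7 against 0.514 to 2.17 FPKM. The part of these cells in the Hox values was not tested. In such sorted pools, more cells of a type and more RNA per cell cannot be told apart.

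The Hox genes that reached a mean of 1 FPKM in these cells were those with low and middle numbers. Of the 23 genes numbered 1 to 8, 19 reached a group mean of 1 FPKM in at least 1 of the 6 groups. Of the 16 genes numbered 9 to 13, 0 did, and their highest value in any of the 21 libraries was 1.68 FPKM, for Hoxd9. Hoxa11, Hoxa13, Hoxb13, Hoxc11, Hoxc12, Hoxc13, Hoxd12 and Hoxd13, which pattern the limbs, the hindgut and the tail end of the body, were listed at 0 in all 21 libraries. Below 1 FPKM in every group among the genes numbered 1 to 8 were Hoxb1, Hoxb8, Hoxd1 and Hoxd4.

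**Figure D1:**
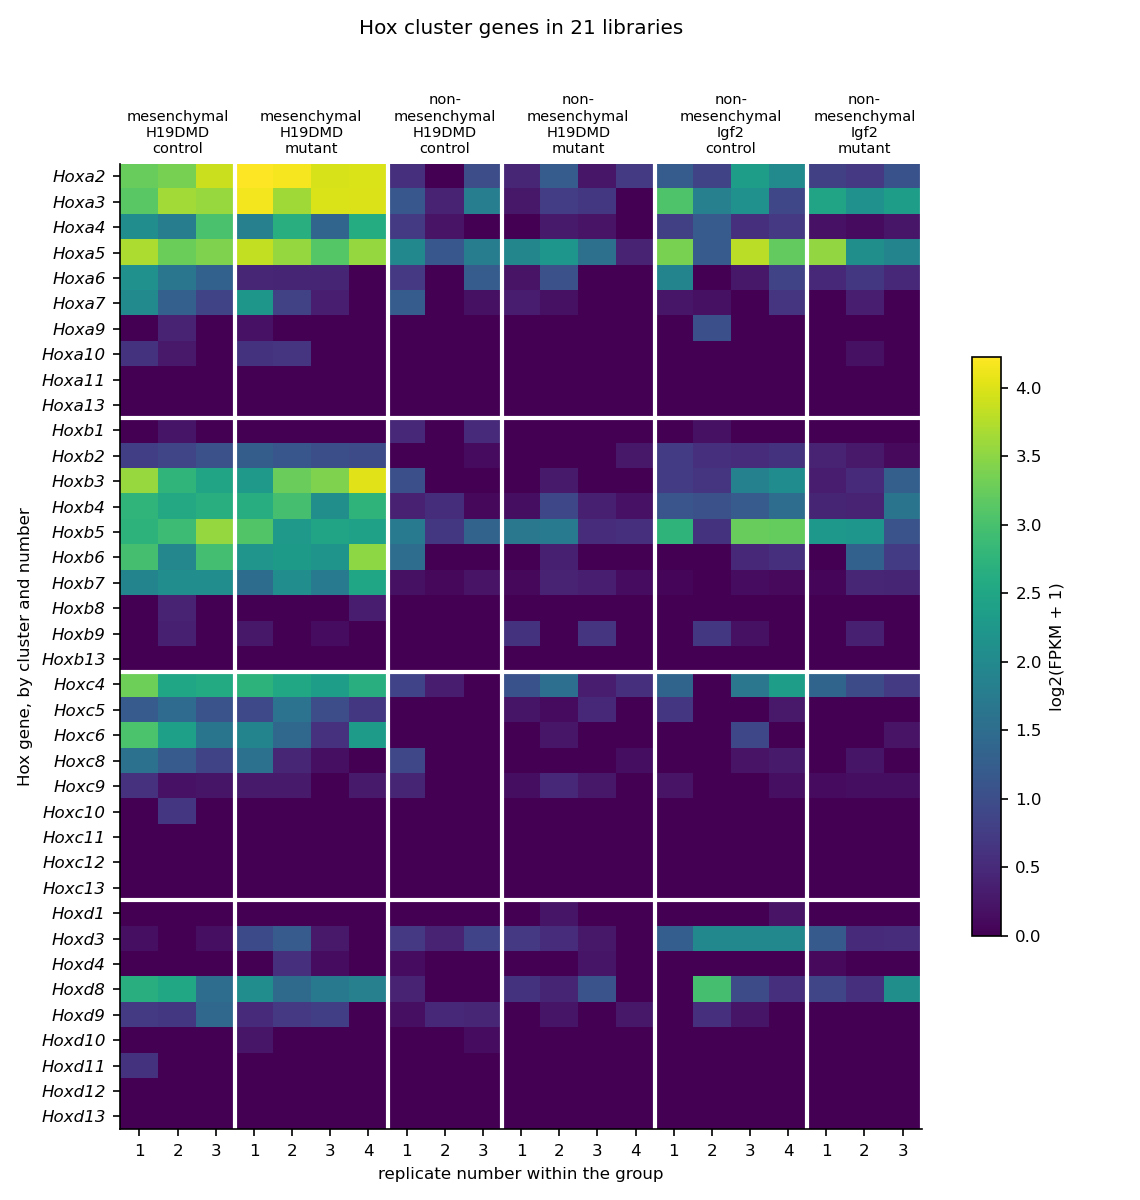
Level of the Hox genes (rows, by cluster and number) in each of the 21 libraries (columns, by group and replicate), as log2(FPKM + 1). Bright cells are found in the rows numbered 2 to 7 of the HoxA, HoxB and HoxC clusters and in Hoxd8, mainly in the mesenchymal columns, and rows numbered 9 to 13 are dark throughout.

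Mesenchymal controls had a summed Hox level of 80.7 to 99.8 FPKM per library, and 17 genes had a mean of at least 1 FPKM. The genes numbered 1 to 3 made up 33.8% of the sum, those numbered 4 to 8 63.9% and those numbered 9 to 13 2.33%. By cluster, HoxA supplied 45.7%, HoxB 33.1%, HoxC 15.5% and HoxD 5.75%. The mesenchymal mutants gave 73.7 to 101 FPKM in sum and 16 genes at 1 FPKM or more. In the non-mesenchymal fraction the sums were 3.84 to 16.6 FPKM in controls and 2.76 to 15.1 FPKM in mutants of the H19DMD model, with 3 and 2 genes at 1 FPKM or more.

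**Figure D2:**
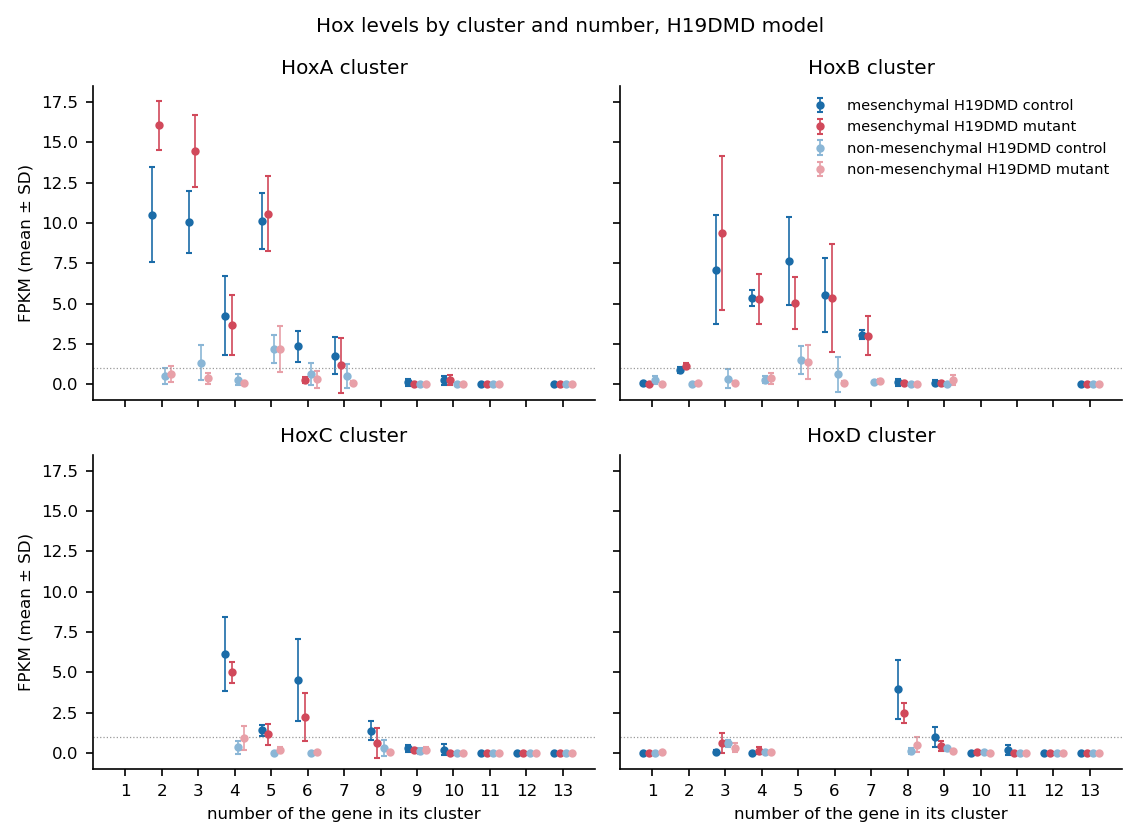
Mean FPKM ± SD of the Hox genes in the 4 groups of the H19DMD model (n = 3 controls and 4 mutants per fraction), by its number in the cluster, with 1 panel per cluster and a dotted line at 1 FPKM. HoxA and HoxB levels are highest between numbers 2 and 6, HoxC starts at number 4, and in HoxD the gene numbered 8 stands above its neighbours.

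The HoxA cluster held the highest single levels. Hoxa2, which patterns the second pharyngeal arch and the hindbrain, was 8.46, 9.25 and 13.9 FPKM in the mesenchymal controls and 17.7, 17, 14.6 and 14.8 in the mesenchymal mutants. In non-mesenchymal cells it was 0.497, 0 and 0.993 FPKM in controls and 0.368, 1.36, 0.195 and 0.640 in mutants. Every mesenchymal library lay far above every non-mesenchymal library of the same model. Hoxa3, needed for the thymus and parathyroid, was 7.87, 11.5 and 10.9 FPKM in mesenchymal controls and 16.7, 11.4, 14.8 and 15 in mesenchymal mutants, against 1.22, 0.323 and 2.49 FPKM in non-mesenchymal controls and 0.206, 0.704, 0.602 and 0 in non-mesenchymal mutants. Hoxa5, known for its role in lung mesenchyme, was 12, 8.69 and 9.59 FPKM in mesenchymal controls and 13.2, 10.7, 7.62 and 10.7 in mesenchymal mutants. Its non-mesenchymal values were 2.92, 1.22 and 2.46 FPKM in controls and 2.82, 3.67, 1.95 and 0.345 in mutants, and its group means were the highest of any Hox gene in that fraction.

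Hoxa4 lay below its neighbours on both sides in the cluster. It was 3.22, 2.46 and 7.04 FPKM in mesenchymal controls and 2.58, 5.32, 1.61 and 5.12 in mesenchymal mutants, and between 0 and 0.647 FPKM in the 7 non-mesenchymal libraries of the H19DMD model. The remaining HoxA genes at 1 FPKM or more in mesenchymal controls included Hoxa6 (2.34 ± 0.98) and Hoxa7 (1.78 ± 1.2 FPKM, SD, n = 3). Hoxa2, Hoxa5 and Hoxa3, at 10.5 ± 2.9, 10.1 ± 1.7 and 10.1 ± 1.9 FPKM (SD, n = 3), did not differ from each other beyond their spread in the controls.

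In the HoxB cluster, 4 neighbouring genes had similar levels. Hoxb5, which acts in lung and in the enteric nervous system, was 5.67, 6.47 and 10.8 FPKM in mesenchymal controls and 7.43, 3.90, 4.51 and 4.35 in mesenchymal mutants, against 2.34, 0.616 and 1.53 FPKM in non-mesenchymal controls and 2.24, 2.39, 0.448 and 0.497 in non-mesenchymal mutants. Hoxb3 was 10.9, 5.80 and 4.55 FPKM in mesenchymal controls and 3.86, 8.55, 9.60 and 15.4 in mesenchymal mutants, and 0 to 1.04 FPKM in non-mesenchymal cells of the H19DMD model. Hoxb3 had the widest range of the HoxB genes in both mesenchymal groups. Hoxb4, known from blood stem cells, was 5.81, 4.83 and 5.33 FPKM in mesenchymal controls and 5.22, 6.93, 3.23 and 5.73 in mutants. Hoxb6 was 6.91, 2.90 and 6.80 FPKM in mesenchymal controls and 3.6, 3.91, 3.54 and 10.3 in mutants, where library 4 stood apart. Hoxb7 (3.06 ± 0.28 FPKM, SD, n = 3, in mesenchymal controls) was the last HoxB gene at 1 FPKM or more in controls, and Hoxb2 (1.14 ± 0.19 FPKM, SD, n = 4) passed it only in mesenchymal mutants.

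HoxC was represented by its forward end. Hoxc4 was 8.78, 4.59 and 5.0 FPKM in mesenchymal controls and 5.65, 4.82, 4.15 and 5.36 in mesenchymal mutants, against 0.792, 0.265 and 0 FPKM in non-mesenchymal controls and 1.09, 1.91, 0.271 and 0.493 in non-mesenchymal mutants. Hoxc6 was 7.21, 4.24 and 2.12 FPKM in mesenchymal controls and 2.76, 1.70, 0.520 and 3.99 in mesenchymal mutants, and was listed at 0 in 6 of the 7 non-mesenchymal libraries. Every mesenchymal library of Hoxc6 lay above every non-mesenchymal one of the model. Hoxc5 was 1.33, 1.77 and 1.11 FPKM in mesenchymal controls and 0.919, 2.06, 0.988 and 0.616 in mutants, and Hoxc8 was 2.00, 1.32 and 0.824 FPKM and 2.01, 0.376, 0.132 and 0. Hoxc8 in the mutants rested on library 1. In non-mesenchymal cells of the model Hoxc5 was listed at 0 in the 3 controls and reached 0.397 FPKM in mutants, and Hoxc8 reached 0.874 FPKM.

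HoxD was low in the H19DMD model except for 1 gene. Hoxd8, a gene known from vascular and lymphatic endothelium as well as mesoderm, was 5.25, 4.72 and 1.84 FPKM in mesenchymal controls and 3.22, 1.75, 2.26 and 2.58 in mesenchymal mutants, against 0.341, 0 and 0 FPKM in non-mesenchymal controls and 0.536, 0.355, 1.12 and 0 in non-mesenchymal mutants. Hoxd3, which shares exons with Hoxd4 in the annotation, went the other way in controls: 0.128, 0 and 0.130 FPKM in mesenchymal cells and 0.635, 0.325 and 0.799 in non-mesenchymal cells. These ranges did not overlap (two-sided exact permutation p = 0.1, the smallest 3 against 3 libraries allow), but the level was too low for the model across all genes. In the mutants Hoxd3 was 0.931, 1.32, 0.217 and 0 FPKM in mesenchymal cells and 0.619, 0.448, 0.210 and 0 in non-mesenchymal cells, and the ranges overlapped.

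Across numbers, summed over the clusters, mesenchymal controls had 11.4 and 17.2 FPKM for numbers 2 and 3 and 19.2 FPKM for number 5. From there the sum was 12.4 FPKM for number 6, 4.83 for number 7, 5.43 for number 8, 1.47 for number 9 and 0.449 for number 10. For numbers 12 and 13 it was 0. Non-mesenchymal controls of the same model had their highest sum at the same number, with 3.70 FPKM for number 5, and the next at number 3 with 2.28 FPKM.

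The first comparison asked which Hox genes separate the fractions in control animals. Of the 39 genes, 14 passed the filter of a mean of 1 FPKM over the libraries compared, and 12 of these rose in mesenchymal over non-mesenchymal cells (limma, Benjamini-Hochberg adjusted p under 0.05 over all genes), where 12.4% of all 16732 genes tested were called in that direction and 22.6% in either (2067 higher and 1718 lower, or 1871 and 2061 with median-ratio scaling of the libraries). Most of the 14 passed the filter through their mesenchymal level: only Hoxa3, Hoxa5 and Hoxb5 had a mean of 1 FPKM or more in the non-mesenchymal controls, so this count and the next describe the genes tested and carry no weight as counts over the clusters. Of the 14 genes tested, 13 had every mesenchymal control above every non-mesenchymal control, where 22.4% of all genes tested did, and 0 had the reverse, where 17.4% did. With 1 library left out, 9 to 13 genes were called: Hoxa4, Hoxb5, Hoxb6 and Hoxd8 each depend on single libraries, with adjusted p of up to 0.0639, 0.0564, 0.116 and 0.0529 (limma). The call of Hoxb6 was also lost with a pseudocount of 0.1 FPKM (limma adjusted p = 0.061) and with median-ratio scaling (0.0514). With the replicate number as a block, the calls of Hoxa4 (limma adjusted p = 0.0716) and Hoxb5 (0.0501) were lost.

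With 1 FPKM added, Hoxa2 gave the largest change on the log scale, 2.97 ± 0.34 (SE, limma adjusted p = 0.00213), and a 21.2-fold ratio of mean FPKM. This rank depended on the processing. Under the alternatives listed below the highest log2 fold changes were 5.37 for Hoxc6, 4.90 for Hoxb3 and 4.69 for Hoxa2. Hoxd8 had the largest ratio of means among the genes tested that have one, 34.7-fold, with a log2 fold change of 2.08 ± 0.40 (SE, limma adjusted p = 0.0141). That ratio rests on 1 non-mesenchymal library with a value above 0, and so does that of Hoxb3 (20.4-fold). Hoxb7 was 24.5-fold and Hoxb4 18.9-fold higher, with values above 0 in every library. Their non-mesenchymal values, 0.0695 to 0.169 and 0.0674 to 0.469 FPKM, are close to 1 or a few fragments, so these ratios are uncertain too. At the other end, Hoxb5 was 5.11-fold and Hoxa5 4.59-fold higher. Hoxa6 and Hoxa7, each at 3.59-fold, did not pass (limma adjusted p = 0.143 and 0.25). All log2 fold changes were computed after adding 1 FPKM, so for a gene near or under 1 FPKM they come out smaller than the ratio of means. Hoxc6 was called with a log2 fold change of 2.36 ± 0.41 (SE, limma adjusted p = 0.00991), and because it was listed at 0 in all non-mesenchymal controls no ratio is given.

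The same contrast was made in the mutants of the H19DMD model, with 4 libraries per fraction. There 12 of 39 genes were tested and all 12 rose in mesenchymal cells (limma adjusted p under 0.05), where 13.5% of 16767 genes were called in that direction and 28.6% in either. Only Hoxa5 and Hoxb5 had a mean of 1 FPKM or more in the non-mesenchymal mutants, so the others passed the filter through their mesenchymal level, and this count and the next are descriptions. The largest log2 fold change was that of Hoxa3, with 3.51 ± 0.24 (SE, limma adjusted p = 1.84e-05) and a 38.3-fold ratio of means, and the next Hoxa2, with 3.42 ± 0.24 (SE, limma adjusted p = 2.3e-05). This rank also depended on the processing, with highest values under the alternatives of 5.97 for Hoxb3 and 5.32 for Hoxa3. The ratios of means were larger for Hoxb3 (158-fold), Hoxb6 (74.2-fold) and Hoxc6 (45.6-fold), each of which rests on 1 non-mesenchymal library above 0 (0.237, 0.288 and 0.197 FPKM). For all 12 the 4 mesenchymal libraries lay above the 4 non-mesenchymal ones, where 14.4% of all genes tested did, and 0 of the 12 had the reverse, where 16.6% did. With 1 library left out 9 to 12 were called, and Hoxb5, Hoxc6 and Hoxd8 depend on single libraries (limma adjusted p of up to 0.0564, 0.0551 and 0.0505). Hoxc6 also fell below the filter without mesenchymal library 1 or 4, so its call held in 2 of 8 such fits. The replicate block ended the calls of Hoxc6 (limma adjusted p = 0.0621) and Hoxd8 (0.0537). Hoxa6 and Hoxa7 did not reach the filter in mutants.

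**Figure D3:**
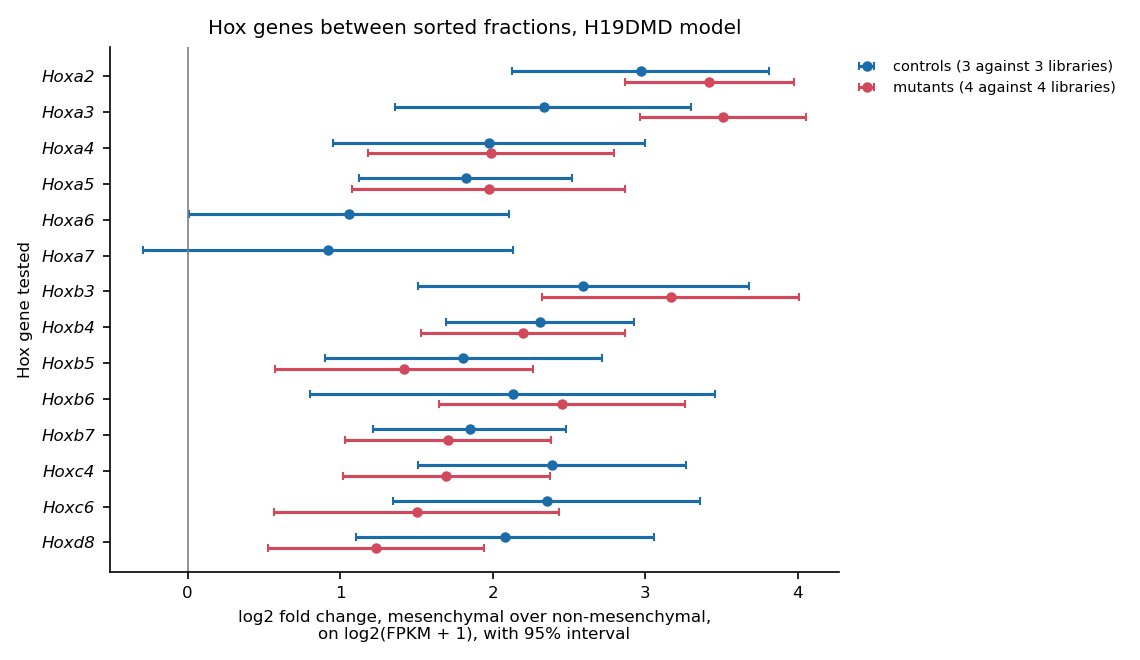
Log2 fold change of mesenchymal over non-mesenchymal cells, on log2(FPKM + 1), with its 95% interval from limma, for the Hox genes tested in controls (blue) and mutants (red) of the H19DMD model. The points lie between 0.92 and 3.51, and the interval of Hoxa7 in controls is the 1 that includes 0.

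The residual non-mesenchymal level differed between genes. In controls, the non-mesenchymal mean was 4.72% of the mesenchymal mean for Hoxa2, 4.90% for Hoxb3 and 2.89% for Hoxd8, but 21.8% for Hoxa5 and 19.6% for Hoxb5. For the mesenchymal markers the same quantity was 0.935% for Col1a1, 0.906% for Col3a1, 0.458% for Pdgfra and 1.15% for Tcf21. Over the 17 Hox genes at 1 FPKM or more in mesenchymal controls its median was 5.76% (0 to 27.9%), and over the 12 markers 0.931% (0 to 16.4%, the highest for Vim). In mutants Hoxa5 was at 20.8% and Hoxb5 at 27.6%, against 1.5% for Col1a1. The order of the other genes differed between genotypes: in mutants Hoxd8 was at 20.5% and Hoxc4 at 18.8% (5.76% in controls), while Hoxa3 was at 2.61% (13.4% in controls). A fragment on 2000 bases was worth 0.112 to 0.122 FPKM in non-mesenchymal controls. It weighs more against Hox means of 1.38 to 10.5 FPKM than against most marker means, such as 883 FPKM for Col1a1. Low Hox shares, that of Hoxd8 in controls (non-mesenchymal mean 0.114 FPKM) among them, thus rest on a few fragments, and their order is not firm. These shares are descriptions, and which cells of the non-mesenchymal pool hold the transcripts was not tested. Neural and Schwann markers summed to 27.6 to 47.2 FPKM in non-mesenchymal controls and 5.62 to 8.17 in mesenchymal controls, and leukocyte markers to 436 to 748 and 18.2 to 33.9 FPKM.

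The base sequences just before the start sites are shown for 4 genes: the most abundant mesenchymal gene of HoxA (Hoxa2), HoxC (Hoxc4) and HoxD (Hoxd8), and Hoxa6, the gene with the smallest p in the mutant comparison below. RefSeq promoter windows (GRCm38.p6) matched 22 of the 39 genes, and the upstream 250 bases are printed 5′ to 3′ on the strand of the gene. They are chr6:52164832-52165081 (minus strand), chr2:74704365-74704614 (plus strand), chr15:103034145-103034394 (plus strand) and chr6:52208673-52208922 (minus strand). The Hoxc4 window lies inside the annotated gene (103018934 to 103036852), before an internal RefSeq start, and the Hoxa6 window overlaps the annotated start of its gene (52206288 to 52208722). Capitals mark CCAAT, the binding motif of the factor NF-Y, read on either strand (CCAAT or ATTGG).
Hoxa2: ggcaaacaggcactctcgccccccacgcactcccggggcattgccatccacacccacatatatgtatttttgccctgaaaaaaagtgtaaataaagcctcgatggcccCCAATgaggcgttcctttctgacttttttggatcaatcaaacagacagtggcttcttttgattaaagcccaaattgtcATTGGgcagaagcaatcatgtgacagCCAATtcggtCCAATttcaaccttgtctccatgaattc
Hoxd8: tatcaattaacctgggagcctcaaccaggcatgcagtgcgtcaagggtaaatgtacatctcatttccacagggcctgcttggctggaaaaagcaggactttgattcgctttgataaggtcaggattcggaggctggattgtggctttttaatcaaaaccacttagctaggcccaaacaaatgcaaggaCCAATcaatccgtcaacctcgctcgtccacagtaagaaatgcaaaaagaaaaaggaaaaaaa
Hoxc4: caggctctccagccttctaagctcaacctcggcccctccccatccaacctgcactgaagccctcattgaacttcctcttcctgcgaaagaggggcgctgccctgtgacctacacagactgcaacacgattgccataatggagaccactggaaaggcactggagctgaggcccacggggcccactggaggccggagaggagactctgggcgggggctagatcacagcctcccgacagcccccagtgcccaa
Hoxa6: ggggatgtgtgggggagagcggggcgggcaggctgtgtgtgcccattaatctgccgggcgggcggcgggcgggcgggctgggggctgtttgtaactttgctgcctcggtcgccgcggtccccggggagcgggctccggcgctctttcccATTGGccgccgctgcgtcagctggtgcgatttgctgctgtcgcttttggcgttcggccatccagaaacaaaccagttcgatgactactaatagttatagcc
Hoxa2 holds 4 such matches, Hoxd8 1, Hoxa6 1 and Hoxc4 0. A match on either strand was present in 14 of the 24 Hox windows (some genes have more than 1) and in 33.8% of all 32851 windows, each cut to the same upstream 250 bases. TGATNNAT, a core of the sites bound by Pbx and Hox proteins together, was found on either strand in 4 of the 24 Hox windows and in 7.68% of all windows. The sequences also differ in CG content, with 24 CG pairs in the Hoxa6 window, 8 in Hoxc4, and 6 each in Hoxa2 and Hoxd8, while the median was 12.5 over the 24 Hox windows and 6 over all windows. These matches describe letters and show no binding.

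The H19DMD deletion was compared with its controls in mesenchymal cells, the cells in which the Cre acts. Of the 39 Hox genes 17 were tested and 0 passed (limma, lowest adjusted p 0.927), where 0.0694% of 15856 genes were called. At an unadjusted p under 0.05 there were 2 of 17, Hoxa6 and Hoxa2, where 4.76% of all genes had one. The median log2 fold change of the 17 was -0.17, against -0.07 over all genes tested, with 5 above 0 and 12 below, where 42.7% of all genes tested were above 0.

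Hoxa6 had the smallest p. It was 3.40, 2.16 and 1.47 FPKM in controls and 0.370, 0.358, 0.355 and 0 in mutants. The 4 mutant libraries all lay below the 3 controls, at levels of a few fragments. The gene passed the filter through its control level, and it was not tested without control library 1 or 2. Its log2 fold change was -1.37 ± 0.37 (SE), with a 95% interval of -2.24 to -0.49 and a limma adjusted p of 0.927, and the two-sided exact permutation p was 0.0286, the smallest that 4 against 3 libraries allow. Hoxa2 was the only other gene of the 17 without overlap, at 14.6 to 17.7 FPKM in mutants and 8.46 to 13.9 in controls. Its log2 fold change was 0.59 ± 0.21 (SE, limma adjusted p = 0.927, two-sided exact permutation p = 0.0286). Groups did not overlap in 2 of 17 Hox genes and in 5.39% of all genes tested (1.62% higher and 3.77% lower in mutants).

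The neighbours and paralogues of Hoxa6 had smaller estimated differences, which were not tested against its own. Hoxa5, next to it, differed by 0.05 on the log2 scale (95% interval -0.49 to 0.58). Hoxa7, on the other side, was 3.07, 1.46 and 0.817 FPKM in controls and 3.69, 0.759, 0.281 and 0 in mutants, a difference of -0.54 on the log2 scale (interval -1.99 to 0.90). Of its 4 mutant libraries 3 lay below the lowest control. Of its paralogues, Hoxb6 differed by -0.09 (interval -1.11 to 0.93) and Hoxc6 by -0.79 (interval -1.99 to 0.41) on the log2 scale. The intervals of Hoxa7 and Hoxc6 include changes as large as that of Hoxa6.

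**Figure D4:**
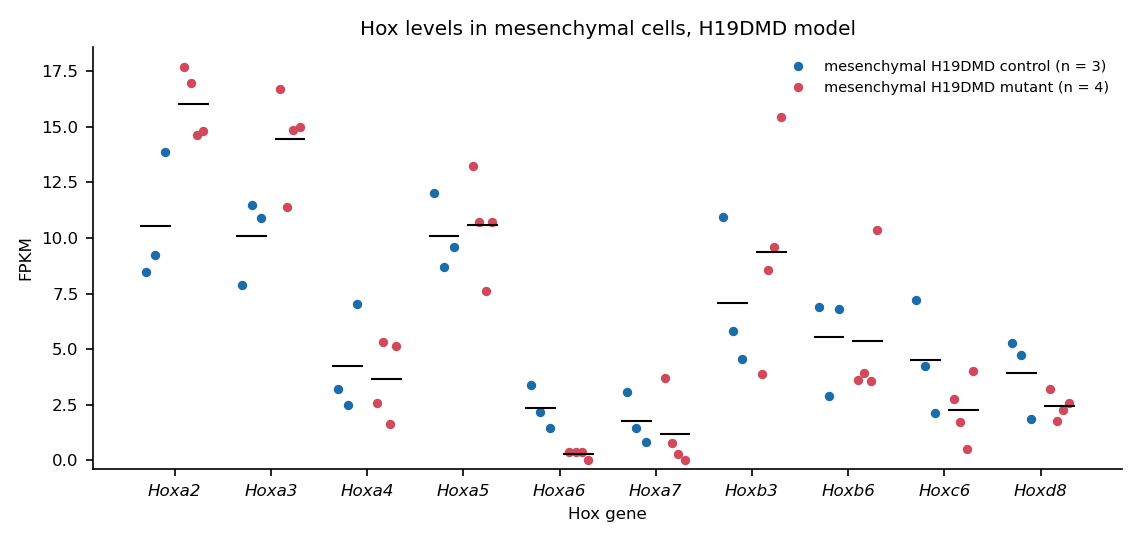
FPKM of selected Hox genes in each mesenchymal library of the H19DMD model, with controls in blue (n = 3) and mutants in red (n = 4), and the mean as a line. Hoxa2 is higher and Hoxa6 lower in every mutant library than in every control library, and the other genes overlap.

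The sum over the genes numbered 1 to 3 was 29.4 to 31.7 FPKM in controls and 40.7 to 47.5 in mutants, and the ranges remained apart with median-ratio scaling (27.5 to 29.6 and 38.2 to 45.1). For the genes numbered 4 to 8 the sums were 49.1 to 67.4 FPKM in controls and 31.7 to 53.7 in mutants, which overlapped. The sums are given without a test, and that for numbers 1 to 3 is made up mostly of Hoxa2, Hoxa3 and Hoxb3. Of the ductal and of the mesothelial markers 5 each were tested in this comparison and 0 were called (limma). Ductal markers summed to 24.2 to 39.0 FPKM in mutants and 39.7 to 86.3 in controls, without overlap. Mesothelial markers summed to 100 to 151 and 149 to 331 FPKM, which overlapped, and the highest value came from 1 control library, the others being at 149 and 165. The median log2 fold change of the 5 was -1.31, and that of the 5 ductal markers -0.35, against -0.07 over all genes tested. In either group 0 of 5 mesothelial markers were at 0. Their part in the Hox values was not tested. The mesenchymal list overlapped, at 4549 to 5937 FPKM in mutants and 5073 to 5956 in controls.

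In non-mesenchymal cells of the H19DMD model only Hoxa5 and Hoxb5 passed the filter, and 0 of 2 were called (limma, lowest adjusted p 0.977), where 0.0677% of 16239 genes were called. At an unadjusted p under 0.05 there were also 0 of 2, where 5.35% of all genes had one. Hoxa5 differed by -0.10 with a 95% interval of -1.23 to 1.02. Hoxb5, which had the smallest p, differed by -0.11 (interval -1.23 to 1.0), and the sign of this value changed when 1 of 3 libraries was left out (control 1, mutant 3 or mutant 4; up to 0.13). The intervals reach about 1 log2 unit in either direction, so smaller differences were not detectable with these libraries.

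Whether the fraction difference itself depended on the deletion was tested by an interaction term over all 14 libraries of the model. Of 12 Hox genes tested 0 passed, where 0.0117% of 17105 genes did. At an unadjusted p under 0.05 there was 1, where 6.35% of all genes had one. It was Hoxa3, with an interaction of 1.18 ± 0.44 (SE, limma unadjusted p = 0.0196, adjusted p = 0.755). Its mean went from 10.1 to 14.5 FPKM in mesenchymal cells and from 1.34 to 0.378 FPKM in non-mesenchymal cells. The other 11 interactions lay between -0.85 (Hoxc6) and 0.57 (Hoxb3).

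The Igf2 model adds 7 non-mesenchymal libraries from a separate table. There 9 of the 39 Hox genes passed the filter and 0 were called between mutants and controls (limma, lowest adjusted p 0.919), where 0.0631% of 17441 genes were called. At an unadjusted p under 0.05 there was 1 of 9, Hoxd3, where 5.28% of all genes had one. The median log2 fold change of the 9 was -0.39, with 7 below 0 and 2 above (47.1% of all genes tested were above 0), against -0.03 over all genes tested. All 9 had a mean of 1 FPKM or more in controls, but only 5 in mutants. Hoxa2, Hoxb3, Hoxb4 and Hoxd3 thus passed the filter through their control level, which favours values below 0, and the split carries no weight as a count. Hoxd3 was 1.41, 2.92, 2.92 and 2.91 FPKM in controls and 1.30, 0.422 and 0.447 in mutants, with no overlap. Its log2 fold change was -1.05 ± 0.36 (SE, limma adjusted p = 0.919), and the two-sided exact permutation p was 0.0571. The gene was tested because of its control mean (2.54 FPKM, against 0.723 in mutants). Hoxa4 and Hoxb2, both too low to be tested, had every mutant below every control: Hoxa4 at 0.0895 to 0.196 against 0.489 to 1.32 FPKM and Hoxb2 at 0.0795 to 0.321 against 0.449 to 0.685 FPKM. No share over the genes below the filter is given for these 2, so they carry no weight as a count. Among the 9 genes tested, every mutant thus lay below every control for 1 and above for 0, where of all genes tested 3.37% and 2.65% did, 6.02% together.

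The most abundant Hox genes of this pool were variable. Hoxa5 was 9.33, 1.32, 12.8 and 8.26 FPKM in controls and 10.6, 3.31 and 2.73 in mutants, and Hoxb5 5.73, 0.534, 8.51 and 8.35 and 3.77, 3.68 and 1.11 FPKM. Control library 2 was low for both and for Hoxc4 (1.58, 0, 2.18 and 4.13 FPKM in controls), while its Hoxd8 was the highest of the 4 (0, 6.85, 0.976 and 0.492 FPKM). In mutants Hoxc4 was 1.56, 0.958 and 0.649 FPKM and Hoxd8 0.836, 0.479 and 3.30. The same control library 2 had an endothelial marker sum of 126 FPKM, where the other 3 controls had 16.7 to 61.6, and mutant library 3 had 128 FPKM, where the other 2 mutants had 29.3 and 64.3. The part of endothelial RNA in the Hoxd8 values was not tested. Acinar markers summed to 29660 to 42950 FPKM in controls and 87630 to 99620 in mutants without overlap, and their part in the Hox values was not tested. The summed Hox level overlapped, at 20.9 to 41.9 FPKM in controls and 17.5 to 25 in mutants.

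Set side by side, non-mesenchymal controls of the Igf2 model and of the H19DMD model had 7.93 ± 4.8 (SD, n = 4) and 2.2 ± 0.88 FPKM (SD, n = 3) of Hoxa5. For Hoxb5 the values were 5.78 ± 3.7 and 1.49 ± 0.86, for Hoxa3 3.56 ± 2.8 and 1.34 ± 1.1, and for Hoxd3 2.54 ± 0.76 and 0.587 ± 0.24 FPKM. The tables were normalised separately, so no test is made across them. Mesenchymal markers summed to 194 to 364 FPKM in the former and 158 to 195 in the latter, and neural and Schwann markers to 25.7 to 114 and 27.6 to 47.2 FPKM. Without overlap were mesothelial markers (81.0 to 129 and 37.7 to 53.5 FPKM), erythroid markers (139 to 1016 and 23.3 to 99.2) and endocrine markers (6261 to 12640 and 19710 to 29820). The other cell type lists overlapped, and the part of any list in the Hox values was not tested. In both pools Hoxa5 had the highest mean of all Hox genes and Hoxb5 the next, in controls.

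**Figure D5:**
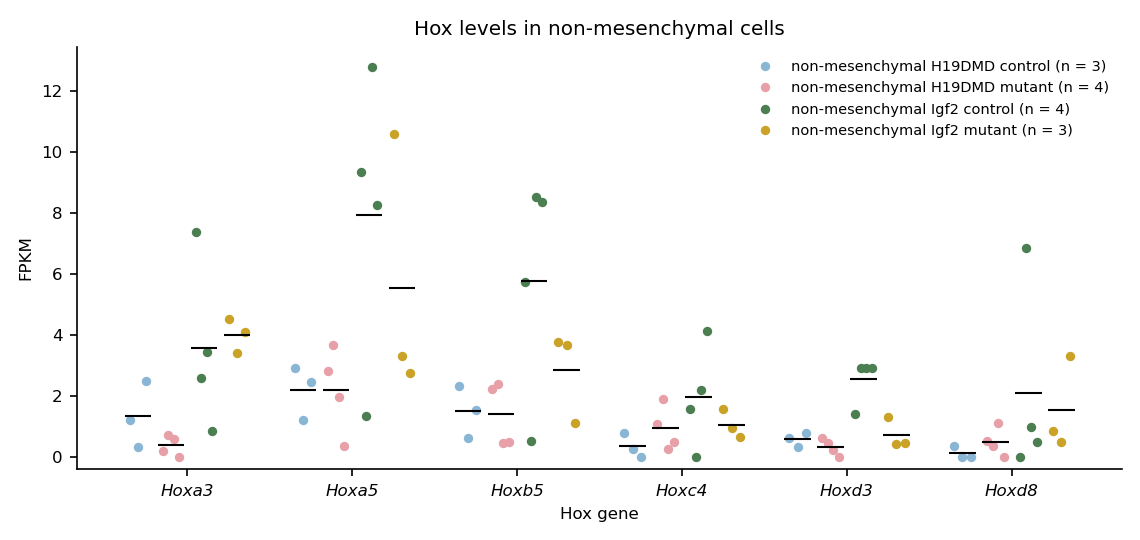
FPKM of 6 Hox genes in each non-mesenchymal library of both models, with the mean as a line; the models come from separately normalised tables. Control libraries of the Igf2 model (green) reach 12.8 FPKM for Hoxa5 and scatter widely, and Hoxd3 separates its controls (1.41 to 2.92) from its mutants (0.422 to 1.30).

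Genes that work with or upstream of the Hox genes were counted from lists. The background for each count is that 22.6% of all genes tested in controls and 28.6% in mutants were called in either direction. Of 11 TALE cofactors tested in H19DMD controls, 4 were higher in mesenchymal cells and 1 lower (limma adjusted p under 0.05). Meis1 was 110 FPKM in mesenchymal and 28.7 in non-mesenchymal cells (log2 fold change 1.89 ± 0.15, SE), Pknox2 11.9 and 0.667, Meis3 25.9 and 7.12 and Tgif1, the lower one, 13.1 and 49.8. In mutants the count was again 4 higher and 1 lower of 11, with Meis1 at 112 and 29.3 FPKM.

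Of 20 Polycomb group genes, whose complexes keep Hox genes silent, 0 were higher and 1 lower in mesenchymal cells of controls (Cbx7, 1.02 and 6.57 FPKM), and 1 (Phc3) was higher and 2, Cbx7 among them, lower of 19 in mutants. Of 9 Trithorax group and demethylase genes, 1 was higher (Dot1l, 13.7 and 6.51 FPKM) and 1 lower (Dpy30, 14 and 30.2 FPKM) in controls, and 2 (Dot1l, Psip1) and 2 (Dpy30, Rbbp5) in mutants. Pdx1, the ParaHox gene of pancreatic epithelium, was the only 1 of 6 Cdx and ParaHox genes tested, at 0.195 FPKM in mesenchymal and 14.1 in non-mesenchymal controls. Among 10 other regulators and partners tested, Rarb (6.44 and 0.750 FPKM), Cyp26b1 (2.57 and 0.128 FPKM), both of retinoic acid signalling, and Gdf11 (4.94 and 1.68 FPKM) were higher in mesenchymal controls, and 2, Egr2 (133 and 428 FPKM) among them, were lower. In mutants the count was 3 higher and 3 lower of 10, the added one being Gmnn. The Evx genes next to HoxA and HoxD were not above the filter. Of the listed genes, 0 were called by limma in the 3 mutant comparisons and the interaction. At an unadjusted p under 0.05 there were 2 of 49 in H19DMD mesenchymal cells (4.76% of all genes tested), 3 of 48 in H19DMD non-mesenchymal cells (5.35%), 3 of 49 in Igf2 non-mesenchymal cells (5.28%) and 5 of 50 for the interaction (6.35%).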

How the data were processed

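The authors deposited FPKM values in 1 table per model, in the column layout of Cufflinks. TopHat2 2.0.8, Cufflinks 2.2.1 and GRCm38 are named per the submitters' processing notes, and the use of strand is not given in the sources used here. Total RNA was amplified and sequenced as single reads, per the labels' protocols. Samples were grouped by their labels. The 8 mesenchymal columns of the Igf2 table were without values, and 1 control library of each fraction of the H19DMD model was not analysed here.

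Within each table, limma 3.58.1 (R 4.3.3; lmFit, eBayes with trend) was fitted, two-sided, to log2(FPKM + 1) of all genes whose mean over the compared libraries reached 1 FPKM. Each fit held only the groups compared, p-values were adjusted by Benjamini-Hochberg over all genes at 0.05, and the code was tested on simulated data. Exact permutation tests of the difference in mean log2(FPKM + 1) stand beside single genes. Hox genes with a mean of 1 FPKM or more in a group are named with values; values per library are given for the 4 highest per cluster in the H19DMD table and the gene with the smallest p in each mutant comparison. Listed regulators are named when called, up to 4 per list; Gdf11, the fifth of its list, was added after its values were seen. Some genes that the rules would name are not reported here, in the text or the figures, and stay in the counts and sums. The genes and lists were chosen with earlier results of these data known, and the promoters shown were chosen after their values were seen. Exons of 16 of the 39 genes overlap another annotated gene, 10 on the opposite strand (Hoxb3 with Hoxb3os among them), so reads of such pairs cannot be told apart without strand. Across genes, replicates correlated at Pearson's r of 0.85 to 0.884, and at most 0.0064% of values above 0 were identical in a pair. Alternatives tried were a pseudocount of 0.1, no filter, median-ratio scaling, a replicate block, all groups of a table in 1 fit, genes of at least 200 nt, and leaving out each library.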

Additional observations from a re-analysis of the deposited data

Results flagged for a closer look

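Among the 27 cases of a Hox gene with a mean of 1 FPKM or more in a group of 4 libraries, 3 had a library far from the others. About 1 in 20 such groups stands out in this way by chance. Hoxb6 was 10.3 FPKM in library 4 of the mesenchymal H19DMD mutants and 3.54 to 3.91 in the other 3. Hoxd8 was 6.85 FPKM in library 2 of the non-mesenchymal Igf2 controls and 0 to 0.976 in the other 3. Hoxd3 was 1.41 FPKM in library 1 of the non-mesenchymal Igf2 controls and 2.91 to 2.92 in the other 3.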

How the results depend on the processing

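In controls of the H19DMD model, 12 of the 14 Hox genes tested were called between the fractions, 9 to 13 with 1 library left out and 10 to 15 under the other alternatives. In mutants 12 of the 12 tested were called, 9 to 12 and 10 to 15. The number tested changes with the filter, so the counts of the alternatives cannot be set against these shares. The median log2 fold change of the Hox genes tested was 2.11 in controls and 0.990 to 3.92 under the other alternatives. In mutants it was 1.98 and 0.935 to 3.81. In the 3 mutant comparisons and the interaction 0 were called under every alternative run; all groups of a table in 1 fit was not run for the Igf2 table or the interaction. In controls the limma call of Hoxa4 was lost without mesenchymal library 1 or non-mesenchymal library 2 or 3 (adjusted p up to 0.0639), of Hoxb5 without library 3 of either fraction (up to 0.0564), of Hoxb6 without mesenchymal library 1 or 3 or non-mesenchymal library 2 or 3 (up to 0.116) and of Hoxd8 without mesenchymal library 1 or 2 (up to 0.0529). In mutants it was lost for Hoxb5 without mesenchymal library 1 or non-mesenchymal library 3 or 4 (up to 0.0564), for Hoxc6 without mesenchymal library 2 or non-mesenchymal library 1, 3 or 4 (up to 0.0551; without mesenchymal library 1 or 4 it was not tested) and for Hoxd8 without mesenchymal library 1 (0.0505). In controls the call of Hoxb6 was lost with a pseudocount of 0.1 (adjusted p = 0.061) and with median-ratio scaling (0.0514). By medians over replicates, 3 instead of 5 Hox genes reached 1 FPKM in the non-mesenchymal Igf2 mutants. Median-ratio scaling moved the median of all genes between the fractions of controls from 0.08 to -0.04, and their split of calls from 2067 higher and 1718 lower to 1871 and 2061. The median of all interactions moved from -0.11 to -0.0048. The log2 fold change of Hoxb5 in non-mesenchymal H19DMD cells, -0.11, changed sign to 0.074 with the replicate block; without 1 library it was -0.40 to 0.13. The cause was not tested. Same-numbered libraries of the fractions correlated at 0.00738 to 0.0674 in their deviations from the group means. Most correlated best with their own number, but library 3 of controls and library 4 of mutants did not. Between genotypes the correlations were -0.0506 to 0.0329. These low values do not settle whether the numbers pair the fractions, and the main fits were unpaired. The replicate block left 10 of the 12 calls in controls, without Hoxa4 (limma adjusted p = 0.0716) and Hoxb5 (0.0501). In mutants it left 10 of the 12, without Hoxc6 (0.0621) and Hoxd8 (0.0537). FPKM values near 0.2 are close to 1 fragment, and differences of genes at that level were not detectable.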

Other observations

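Non-coding RNAs inside the clusters were outside the set of Hox genes described above. Hoxb3os, an antisense transcript whose exons overlap Hoxb3 and Hoxb2, was 11.3 FPKM ± 2.5 (SD, n = 3) in mesenchymal controls and 13.6 ± 2.0 (SD, n = 4) in mesenchymal mutants of the H19DMD model. In non-mesenchymal cells it was 0 to 0.704 FPKM in that model and 1.02 to 2.49 FPKM in the Igf2 model. Its level in mesenchymal cells was above that of Hoxb3 (7.09 ± 3.4 FPKM in controls) and far above that of Hoxb2 (0.876 ± 0.18), and without strand the reads of the shared exons cannot be assigned. Hotair and Hoxa11as were listed at 0 in all 21 libraries. Evx2 was also listed at 0 in all 21, and Evx1 reached at most 0.578 FPKM. Mir10b was listed at 3437 FPKM in 1 mesenchymal mutant library and at 0 in the other 20. FPKM divides by transcript length, so few fragments on a short transcript give a high value, and this one is not read as a high level.

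Hoxd9, the only gene numbered above 8 with a value above 0 in every mesenchymal control besides Hoxc9, had a mean of 0.976 FPKM there and 0.291 in non-mesenchymal controls, without overlap (0.601 to 1.68 and 0.129 to 0.381 FPKM, two-sided exact permutation p = 0.1, the smallest that 3 against 3 libraries allow). In mutants it was 0.419, 0.631, 0.728 and 0 FPKM in mesenchymal and 0, 0.181, 0 and 0.204 in non-mesenchymal cells, and the ranges overlapped (two-sided exact permutation p = 0.171). It lies next to Hoxd8 in the cluster.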
